A study of Mus musculus with 2 samples.

Results

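Lipolysis enzymes and regulators were described in adipocytes as open chromatin at 6 genes: Pnpla2, Lipe, Mgll, Abhd5, G0s2 and Aqp7. The genes were chosen by name from the 21829 protein-coding genes of GENCODE release M21. Every peak and hotspot overlapping a gene body extended by 50 kb on each side was counted as belonging to that gene's window. DNase-seq, which sequences DNA ends that the enzyme DNase I cuts in accessible chromatin, was used on adipocytes differentiated in vitro from 3T3-L1, a mouse preadipocyte line, for 8 days. The series held 1 group of 2 libraries, labelled biological replicates 1 and 2, and no undifferentiated or untreated group. The labels gave C57BL/6J as the strain, whereas the line is generally traced to Swiss mice, so no strain was assumed. Both libraries carried the same donor record and each combined more than 1 technical replicate. With 1 group and no control, the values below are descriptions, and no difference was tested.

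In fat cells, triglyceride stored in lipid droplets is broken down in steps: the PNPLA2 lipase (ATGL) removes a fatty acid from triglyceride, hormone-sensitive lipase (LIPE) acts mainly on diglyceride, and MGLL releases the last fatty acid from monoglyceride. ABHD5 (CGI-58) activates PNPLA2, G0S2 inhibits it, and AQP7 is a channel through which the freed glycerol leaves the cell. Catecholamines switch the process on through cAMP and kinase A, and insulin restrains it.

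The windows of the 6 genes held 146 peaks of replicate 1 and 288 of replicate 2, which merged into 297 regions. Both replicates had a peak in 118 of these regions, replicate 1 alone in 18 and replicate 2 alone in 161. Of the shared regions, 28 had a centre at most 1000 bp from a protein-coding start and were called promoter regions, and 90 were distal. Promoters were open in both replicates at 5 of the 6 genes, and at 55.3% of all protein-coding genes. The same 5 had a promoter peak when replicate 1 (55.6% of all genes) or replicate 2 (59.5%) was counted by itself, and a promoter hotspot in both (55.8%). Mgll was the exception, although its window held the most distal shared regions of the 6. Lipe combined the densest distal field with hotspots over most of its gene body. Each list covered unequal amounts of the genome: replicate 1 held 133695 peaks and 117685 hotspots, and replicate 2 held 216556 and 185029. Sequencing depth is unknown, so a region found in replicate 2 alone cannot be told apart from one missed in replicate 1.

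Sequences selected by the rules given with them follow, all in GRCm38 and read 5′ to 3′. The first pair are the stretches directly upstream of the RefSeq starts of Pnpla2 and Lipe, from the RefSeq promoter table and without annotated exon bases. They are shown because they were the only upstream flanks of the 6 genes with bases under peaks of both replicates, and capitals mark those bases, 112 of 250 at Pnpla2 and 90 of 239 at Lipe. The Pnpla2 stretch is chr7:141454938-141455187 on the plus strand, and the Lipe stretch is chr7:25390113-25390351 on the minus strand.
Pnpla2 upstream flank: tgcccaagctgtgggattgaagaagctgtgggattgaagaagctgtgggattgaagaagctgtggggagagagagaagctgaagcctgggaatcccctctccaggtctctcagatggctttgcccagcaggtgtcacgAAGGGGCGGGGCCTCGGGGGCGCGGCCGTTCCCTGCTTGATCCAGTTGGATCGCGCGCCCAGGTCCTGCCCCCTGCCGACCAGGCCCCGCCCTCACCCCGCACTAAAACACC
Lipe upstream flank: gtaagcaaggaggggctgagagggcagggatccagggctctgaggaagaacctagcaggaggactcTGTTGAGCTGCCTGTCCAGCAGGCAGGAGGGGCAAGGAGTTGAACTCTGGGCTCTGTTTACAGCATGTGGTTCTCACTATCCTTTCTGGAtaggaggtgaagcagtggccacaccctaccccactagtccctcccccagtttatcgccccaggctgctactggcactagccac
The next set holds, for each gene, the distal region of highest mean rank that carried the letters of a PPAR-RXR or C/EBP motif and held no base of an exon of any annotated transcript, non-coding ones included. Where no region met both conditions, as at Pnpla2 and Aqp7, the highest-ranked region free of exons is shown. A Lipe region at chr7:25394876-25395085 and an Aqp7 region at chr4:41094396-41094645 also held C/EBP letters but overlapped such exons. PPARG with its partner RXR, and the C/EBP factors, are the main drivers of adipocyte differentiation. Capitals mark the 8 letters of the C/EBP motif TTGCNNAA or its reverse complement. These are on the plus strand at chr7:141452156-141452325 for Pnpla2, chr7:25372536-25372685 for Lipe, chr6:88754836-88754985 for Mgll, chr9:122420436-122420605 for Abhd5, chr1:193310576-193310725 for G0s2 and chr4:41065296-41065465 for Aqp7.
Pnpla2 distal region: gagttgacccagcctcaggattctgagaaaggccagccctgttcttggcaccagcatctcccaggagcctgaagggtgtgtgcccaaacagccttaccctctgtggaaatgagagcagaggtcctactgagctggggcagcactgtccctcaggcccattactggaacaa
Lipe distal region: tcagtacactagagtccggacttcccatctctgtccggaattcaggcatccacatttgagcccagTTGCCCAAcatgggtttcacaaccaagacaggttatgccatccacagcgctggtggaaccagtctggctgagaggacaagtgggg
Mgll distal region: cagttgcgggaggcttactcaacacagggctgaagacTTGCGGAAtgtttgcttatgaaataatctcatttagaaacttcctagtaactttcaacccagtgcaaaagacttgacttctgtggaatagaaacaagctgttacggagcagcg
Abhd5 distal region: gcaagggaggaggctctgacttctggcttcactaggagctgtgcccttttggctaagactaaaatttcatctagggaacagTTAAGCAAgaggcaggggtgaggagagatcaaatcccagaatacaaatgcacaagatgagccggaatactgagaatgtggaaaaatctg
G0s2 distal region: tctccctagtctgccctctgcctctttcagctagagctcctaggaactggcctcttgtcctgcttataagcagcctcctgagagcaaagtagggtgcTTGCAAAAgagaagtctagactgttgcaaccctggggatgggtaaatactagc
Aqp7 distal region: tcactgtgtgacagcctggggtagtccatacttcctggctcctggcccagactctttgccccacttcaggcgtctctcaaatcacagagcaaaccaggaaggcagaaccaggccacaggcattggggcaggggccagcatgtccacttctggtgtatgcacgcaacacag
The last sequence, at chr6:88717476-88717625 on the plus strand, is the only distal shared region of the 6 windows with the PPAR-RXR letters, AGGTCA repeated with any base between, and no mismatch. It was chosen for printing after its values were seen. Capitals mark the match, which reads AGGTCACAGGTCA on the minus strand.
Mgll region with the PPAR-RXR letters: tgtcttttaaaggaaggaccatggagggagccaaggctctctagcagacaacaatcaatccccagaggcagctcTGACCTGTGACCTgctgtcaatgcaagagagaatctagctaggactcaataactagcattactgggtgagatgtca

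The deposited peak values run from 1 to 150 on the authors' own scale, with medians of 45 in replicate 1 and 69 in replicate 2. They served for ranking inside a list, and a percentile below is the share of that replicate's peaks with a lower value, ties counted at their midpoint. Promoter regions tended to rank high, with median percentiles of 78.0 in replicate 1 and 87.5 in replicate 2 over all shared promoter regions, against 50 and 67.3 over all shared distal ones.

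Pnpla2 (ENSMUSG00000025509.15, chr7:141455198-141460743, plus strand), the triglyceride lipase, has 4 annotated coding starts within a single cluster. A shared peak at chr7:141455056-141455225 covered those at 141455198, 141455207 and 141455219, with a value of 97 in replicate 1 and 134 in replicate 2 (percentiles 91.5 and 94.7). The replicate 1 peak ended at 141455205 and reached only the first of these starts, whereas the replicate 2 peak covered all of them. A further shared peak lay in the gene's intron at chr7:141455776-141455945, with values of 94 and 136. Both promoter peaks ranked high in both lists. The upstream flank printed above runs into the first of these peaks. Upstream of the gene, the intergenic region printed as the Pnpla2 distal region, centred at −2957 bp from the nearest start (a minus sign marks upstream), ranked higher still, with values of 108 and 142 (percentiles 95.3 and 97.8).

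Most of the open chromatin around Pnpla2 belonged to promoters. Its window of 105.546 kb held 20 shared regions, 15 of them promoter regions and 5 distal, and only 2 of the 15 lay at Pnpla2 itself. Pnpla2 had the nearest coding start for 1 of the 5 distal regions. The starts of 10 coding genes, Pnpla2 included, fall in this window, at percentile 97.4 of all gene windows. Among the 9 neighbours, Cd151, Gatd1, Rplp2, Slc25a22 and Tspan4 had a promoter peak in both replicates. Cracr2b, Pidd1 and Polr2l had one in replicate 2 only, and Cend1 had none. The next highest distal regions were in introns of other genes, at chr7:141408996-141409145 in Gatd1 (83 and 118) and at chr7:141480856-141481045 in Tspan4 (38 and 74).

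Hotspot cover and the number of regions found in replicate 2 alone differed more between the replicates at Pnpla2 than at the other 5 genes. Its window held 25 peaks of replicate 1 and 69 of replicate 2, and 46 of its regions were found in replicate 2 alone. Per 100 kb, that number of regions unique to replicate 2 was at percentile 99.7 among all gene windows. Of the 46, 2 (4.35%) lay inside a replicate 1 hotspot, near the share of 5.83% over all regions unique to replicate 2. Hotspots, the wider regions of raised cutting that the authors called apart from peaks, covered 5.81% of the gene body in replicate 1 and 74.1% in replicate 2. A single replicate 2 hotspot of 3930 bp at chr7:141453361-141457290 ran over the start cluster and held 5 peaks, whereas the widest replicate 1 hotspot in the window measured 909 bp. Across the whole window, hotspot cover in replicate 2 was 4.50 times that in replicate 1, at percentile 98.8 among 19635 genes with cover in replicate 1, where the median ratio was 1.56. Some peaks unique to replicate 2 ranked high there, such as chr7:141456896-141457045 in the gene's intron with a value of 136 (percentile 95.5). The median percentile of the 46 was 52.9, against 28.5 over all regions unique to replicate 2.

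Lipe (ENSMUSG00000003123.15, chr7:25379527-25398710, minus strand) encodes hormone-sensitive lipase, and is known to use separate start sites in testis and in adipose tissue. Its 6 annotated coding starts fall into 3 clusters, and they were not equally open. The most upstream cluster, at 25398709 to 25398710, had no peak or hotspot within 1000 bp in either replicate, and its nearest peak centre lay at 2998 bp in replicate 1 and at −2941 bp in replicate 2. Near the middle start, 25396379, a shared peak at chr7:25395636-25395825 in an exon had values of 96 and 139 (percentiles 91.1 and 96.7). Its peak centres lay 668 bp after that start in replicate 1 and 628 bp after it in replicate 2. No peak or hotspot covered the start itself. The most downstream cluster, from 25390477 to 25389224, held the strongest of the gene's shared promoter peaks, at chr7:25390136-25390345, with values of 111 and 143 (percentiles 96.2 and 98.1). The capitals of the Lipe upstream flank printed above lie under this peak. A replicate 2 peak directly beside it, at chr7:25390356-25390505, reached 146 (percentile 99.1) and had no replicate 1 peak. The other shared promoter peaks of this cluster were at chr7:25391076-25391245 (91 and 131) and chr7:25388576-25388745 (48 and 96).

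For this comparison a cluster was open when both replicates had a peak within 1000 bp, so one that was not open may have a peak in 1 replicate. A most upstream cluster that was not open, with an open one further down, was uncommon. Among the 7397 coding genes with 2 or more clusters, 10.4% had this arrangement. The reverse, an open most upstream cluster and at least 1 further down that was not open, occurred at 39.9% of them. Of the 3 genes here with 2 or more clusters, Lipe had the first arrangement and Abhd5 and Aqp7 the second. The downstream start of Abhd5 had a peak in replicate 2 alone.

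**Figure D1:**
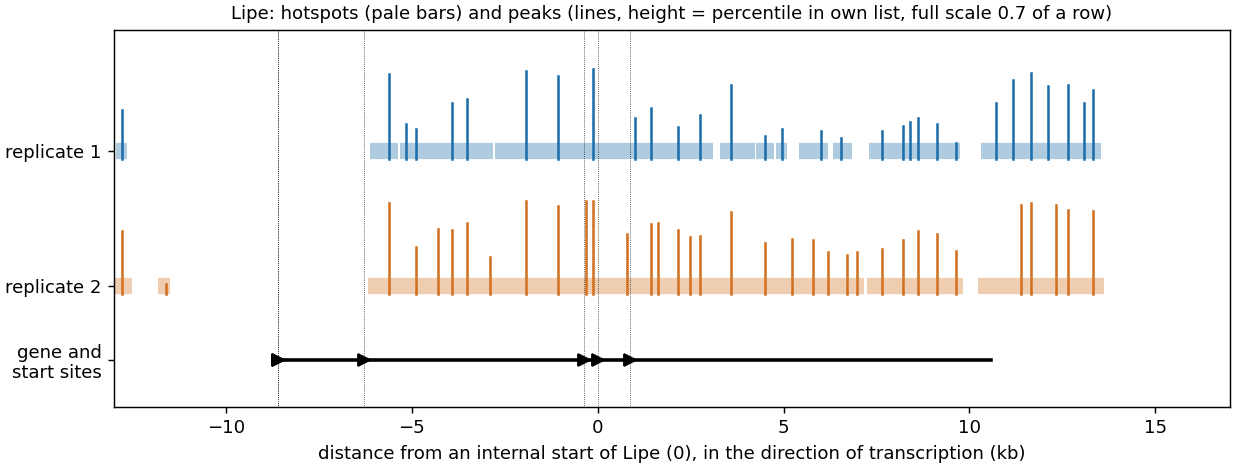
Hotspots (pale bars) and peaks (vertical lines, height scaled to the percentile of the peak in its own list) of both replicates along Lipe, by distance in kb from an internal start in the direction of transcription. Triangles and dotted lines mark annotated coding starts, and the horizontal black line is the gene body, 77.7% of which lay in hotspots of replicate 1 and 84.9% in those of replicate 2, while the most upstream starts carry neither hotspot nor peak.

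The body of Lipe was filled with open chromatin in both libraries. Hotspots covered 77.7% of its 19.184 kb in replicate 1 and 84.9% in replicate 2, at percentiles 99.6 and 99.3 among all coding genes, whose medians were 2.16% and 3.89%. The widest hotspots of the window were 5871 bp in replicate 1 (chr7:25387011-25392881) and 9399 bp in replicate 2 (chr7:25386890-25396288). Both spanned the downstream start cluster, and the replicate 2 hotspot held 16 peaks. A hotspot of 3228 bp in replicate 1 and 3398 bp in replicate 2 reached from the end of the gene into the intergenic stretch downstream.

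Lipe also had the densest field of distal regions of the 6 genes. Its window held 24 distal shared regions, or 20.1 per 100 kb (percentile 99.4), against a median of 5.10 over all gene windows. Of the 24, 13 lay in the gene body, 5 upstream and 6 downstream. Lipe had the nearest coding start for 14 of the 24. The neighbouring genes Cnfn and Cxcl17 had no promoter peak in either replicate. The highest-ranked distal region lay in a Lipe intron at chr7:25391936-25392105 (103 and 143), and the next were intergenic and downstream of the gene at chr7:25378336-25378565 (97 and 139) and chr7:25377376-25377525 (74 and 122). The field was dense rather than strong: the median percentiles of the 24 were 40.8 in replicate 1 and 65.2 in replicate 2, below those of all distal shared regions.

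Lipe, in contrast to Pnpla2, had nearly equal numbers of peaks in both libraries, 43 in replicate 1 and 47 in replicate 2. Many of them still fell at different places within the same open stretch. All 10 regions found in replicate 1 alone lay inside a replicate 2 hotspot, and 11 of the 18 found in replicate 2 alone lay inside a replicate 1 hotspot. Over the genome the first share was 61.9% and the second 5.83%. Over the 6 windows together they were 17 of 18 and 15 of 161.

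Mgll (ENSMUSG00000033174.17, chr6:88724412-88828360, plus strand), the monoglyceride lipase, has 6 coding starts in a single cluster from 88724412 to 88724828. Neither replicate had a peak or a hotspot within 1000 bp of any of them. When starts of all annotated transcripts of the gene were counted, non-coding ones included, each replicate had a peak within 1000 bp of an Mgll start. Peaks at such starts are distal by the rule used here. Each replicate also had a peak within 2500 bp of a coding start. The nearest shared region was upstream at chr6:88722696-88722885, with values of 46 and 99. Its peak centres lay at −1601 bp from the cluster in replicate 1 and at −1641 bp in replicate 2. The start sites themselves are rich in CpG, with observed to expected CpG ratios of 0.93 to 0.95 in the surrounding 1001 bp, where the median over 54361 coding starts was 0.52. Among 10929 genes with a CpG-rich start, meaning a ratio of at least 0.6 and a GC content of at least 50%, 82.8% had a promoter peak in both replicates and 15% had none in either, as Mgll did. Among the other 10900 genes, 27.7% had a promoter peak in both.

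Around these coding starts without a peak the Mgll window was rich in distal regions. It held 29 of them, or 14.2 per 100 kb (percentile 96.4), of which 18 lay in the gene body, 6 upstream and 5 downstream. Mgll had the nearest coding start for 16 of the 29. Among the 8774 coding genes with no promoter peak in either replicate, 0.353% had at least as many distal shared regions in their windows, though windows differ in length and Mgll is 103.949 kb long. The strongest was in an intron 2333 bp after the nearest start, at chr6:88727076-88727245, with values of 109 and 142 (percentiles 95.6 and 97.8). Another intronic region, at chr6:88732236-88732405 and 7493 bp after the start, had values of 97 and 142. A region in an intron of Podxl2, at chr6:88861036-88861205, followed with 79 and 128. The single promoter region in the window belonged to the neighbour Abtb1, at chr6:88842176-88842365, and had values of 139 and 145, the highest shared values in the window. Podxl2 had no promoter peak in either replicate.

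Abhd5 (ENSMUSG00000032540.16, chr9:122351608-122381524, plus strand), the activator of PNPLA2, had a shared peak over its upstream start cluster at chr9:122351636-122351805, with values of 90 and 128 (percentiles 88.4 and 92.2). A weaker shared peak followed at chr9:122352196-122352365, with 57 and 105. At its downstream start, 122363653, which lies 12045 bp further on, a peak was found in replicate 2 only, with a value of 63. The upstream starts are CpG-rich, with ratios of 0.91 and 0.95. Its window held 12 distal shared regions, or 9.24 per 100 kb (percentile 81.7). Abhd5 had the nearest coding start for 8 of the 12. The 12 regions ranked high, with median percentiles of 75 and 76.3, and the highest were far from the gene. A pair of intergenic regions downstream, at chr9:122420436-122420605 (116 and 140) and chr9:122420956-122421245 (109 and 144), lay 56.868 and 57.448 kb from the nearest Abhd5 start, which was also the nearest coding start of any gene. The first of the pair is the Abhd5 region printed above. The third, upstream at chr9:122310816-122310965, had values of 97 and 131 and was nearer to the start of Ano10.

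G0s2 (ENSMUSG00000009633.3, chr1:193272161-193273217, minus strand), the inhibitor of PNPLA2, is a short gene of 1.057 kb with a single start. A shared peak at chr1:193272996-193273165, in the exon just after the start, had values of 76 and 112 (percentiles 80.7 and 84.4). This was the lowest-ranked of the 5 genes' best promoter peaks in both replicates. Its distal regions ranked higher than those of the other 5 genes, with median percentiles of 88.0 and 90.9 over 11 regions. All 11 lay in introns of neighbouring genes, since the annotated body of Lamb3 spans G0s2 on the opposite strand. The highest were at chr1:193316076-193316225 in Lamb3 (116 and 143), at chr1:193262216-193262385 in Hsd11b1 and Lamb3 (109 and 139), and at chr1:193310576-193310725 in Lamb3 (104 and 139). G0s2 was the gene with the nearest coding start for only 2 of the 11, and both neighbours had a promoter peak in both replicates. The intronic region nearest upstream, at chr1:193278556-193278705 at −5414 bp from the start, had values of 91 and 136. Like Pnpla2, G0s2 differed between the libraries, with 16 peaks in replicate 1 and 45 in replicate 2 and hotspot cover 3.08 times as large in replicate 2 (percentile 97.0).

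Aqp7 (ENSMUSG00000028427.13, chr4:41033074-41048139, minus strand), the glycerol channel, had a shared peak at its upstream start, at chr4:41047936-41048105, with values of 98 and 134 (percentiles 91.9 and 94.7). Its downstream start, 2691 bp further on at 41045448, had no peak or hotspot within 1000 bp in either replicate. The CpG ratio at the open start was 0.14, at percentile 12.2 of all coding starts, so this promoter peak stood in DNA poor in CpG. The window held 9 distal shared regions, or 7.82 per 100 kb (percentile 73.3), and Aqp7 had the nearest coding start for 4 of the 9. The highest was intergenic, at −17242 bp from the start, and is the Aqp7 region printed above (96 and 124). The next were upstream at chr4:41050696-41051025 (87 and 128) and in the gene's intron at chr4:41041156-41041345 (76 and 121). Aqp7 had the fewest peaks of the 6 genes in both libraries, 12 and 26.

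**Figure D2:**
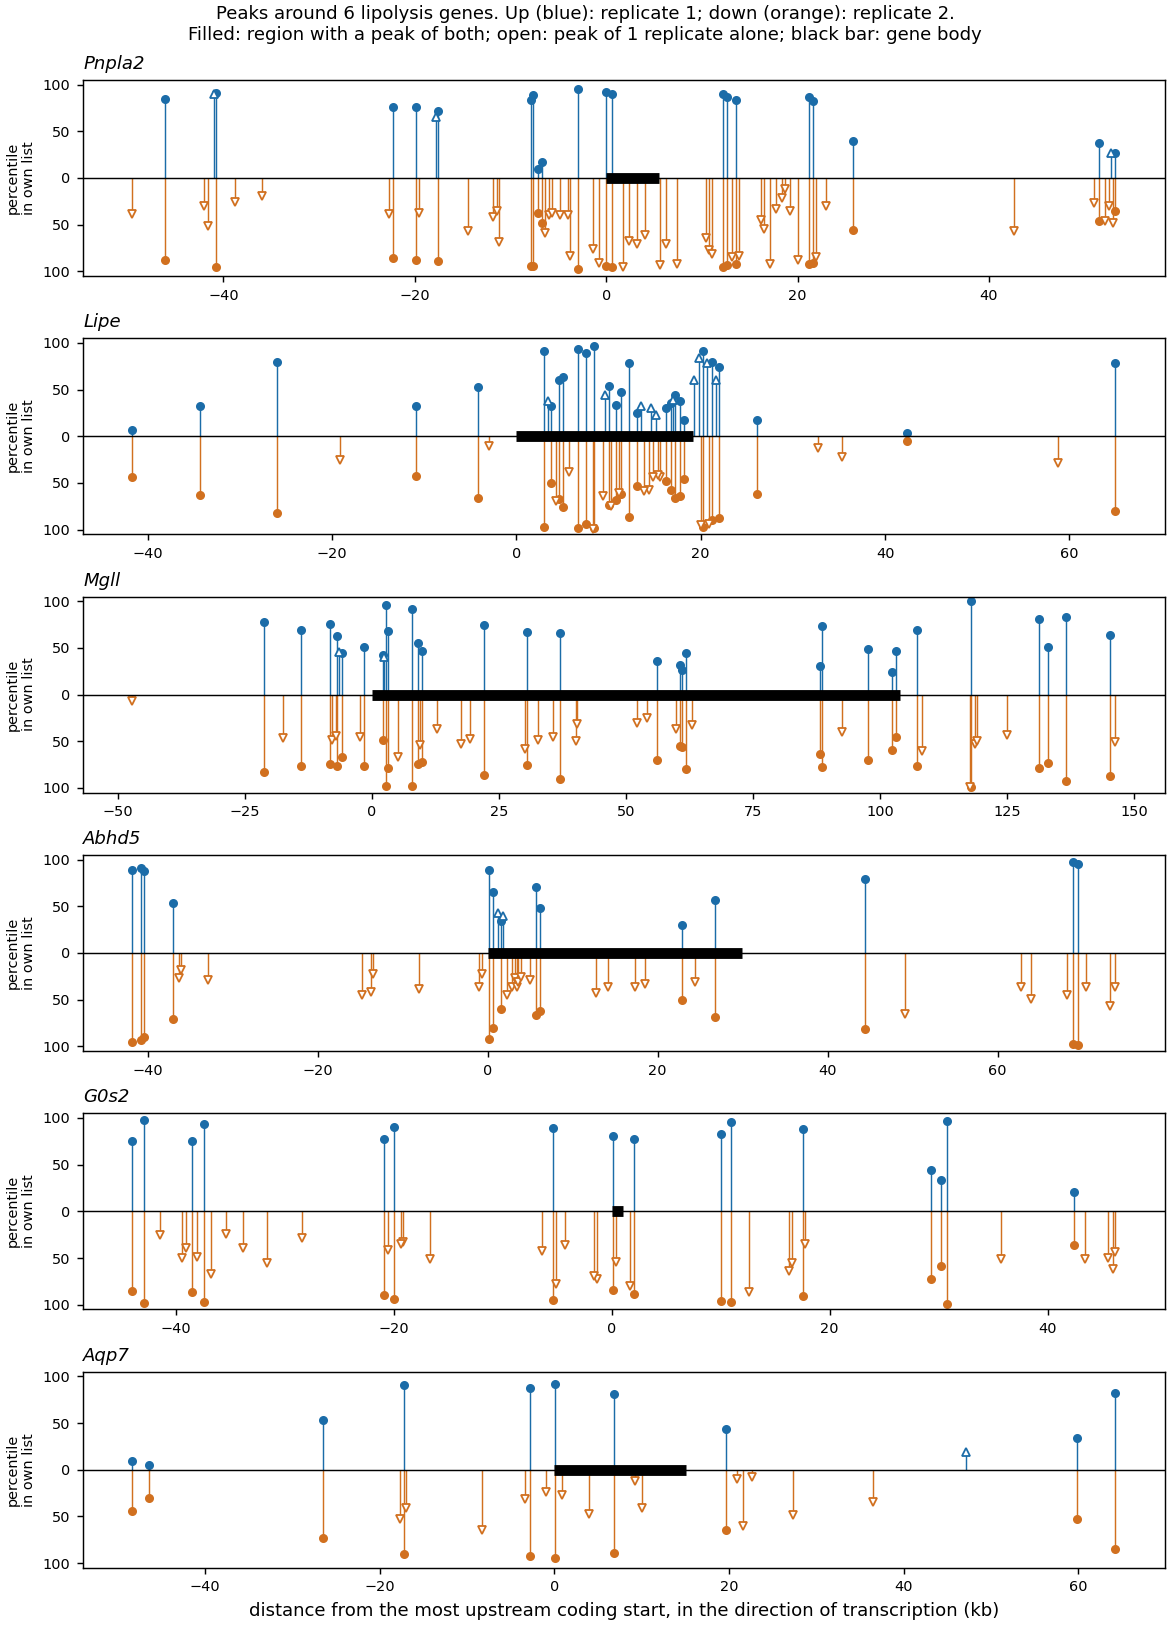
Peaks in the windows of the 6 genes by distance in kb from the most upstream coding start, replicate 1 drawn upward and replicate 2 downward, with height as the percentile of the peak in its own list. Filled symbols are regions shared by both replicates (118 in all) and open symbols are peaks of 1 replicate alone. Regions of replicate 2 alone are most numerous at Pnpla2 (46), with 29 at G0s2, 28 at Abhd5 and 26 at Mgll. Black bars are gene bodies.

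Ordered by distal shared regions per 100 kb, the genes ran Lipe (20.1), Mgll (14.2), G0s2 (10.9), Abhd5 (9.24), Aqp7 (7.82) and Pnpla2 (4.74). With 1 merged count per gene, this order has no replicate error, and neighbours in it were not tested against each other. Only Pnpla2 stood below the median of all gene windows, at percentile 46.4, and its place was the least stable. Counting every distal peak of replicate 2, shared or not, put it at percentile 97.8, and counting every one of replicate 1 at percentile 58.2. With flanks of 100 kb it was at percentile 73.1. It stayed below the median with flanks of 20 kb (29.1) and when peaks had to overlap by 50% of the shorter (30.1). The same held for the stronger 50% of peaks (45.1) and for the longer list cut to the length of the shorter (45.5). Lipe stayed at or above percentile 98.2 with either library alone, and Mgll at or above 95.3. The top of the order moved as well. With the stronger 50% of peaks, G0s2 (percentile 95.5) stood above Mgll (93.5) and Lipe (92.4). With replicate 2 alone, G0s2 (98.9) stood above Lipe (98.2), and Abhd5 (97.6) and Pnpla2 stood above Mgll (95.3).

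**Figure D3:**
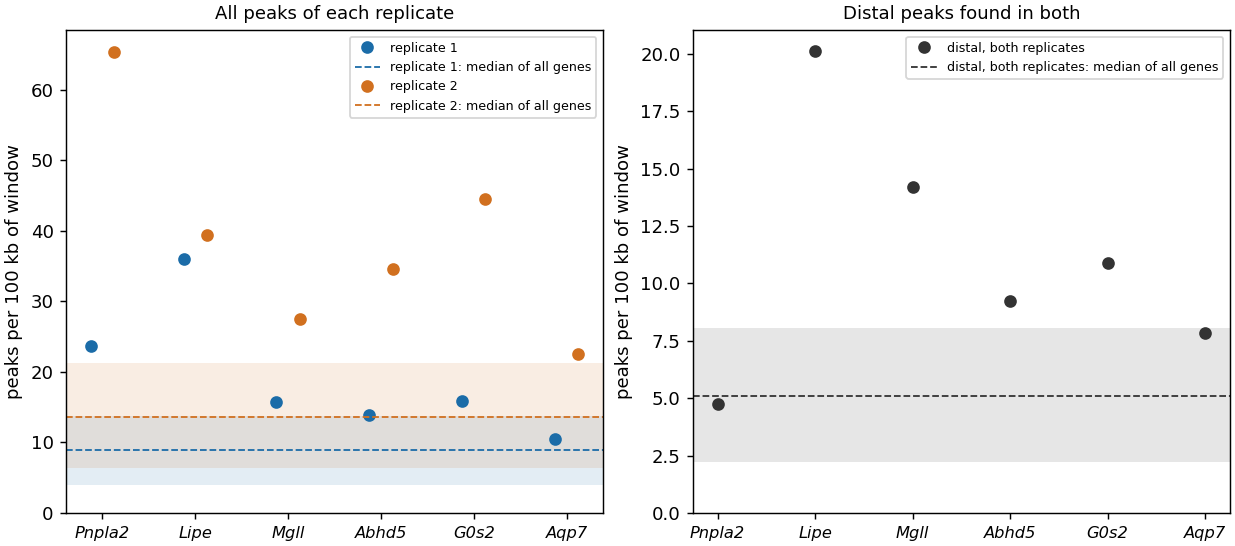
Peaks per 100 kb of window for each gene, for all peaks of each replicate (left) and for distal regions shared by both (right). Dashed lines are medians over all protein-coding genes (8.87 and 13.6 on the left, 5.10 on the right) and shaded bands are their quartiles. Lipe is highest on the right and only Pnpla2 is below the median there. With flanks of 100 kb or a single library Pnpla2 is above it, and in the other settings tried it stays below.

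Gene bodies inside hotspots gave another order. After Lipe, replicate 1 had cover of 18.7% at G0s2, 8.29% at Abhd5, 7.21% at Aqp7, 5.81% at Pnpla2 and 5.26% at Mgll. In replicate 2 the cover was 74.1% at Pnpla2, 45.8% at G0s2, 21.8% at Abhd5, 14.4% at Aqp7 and 11.2% at Mgll. All 6 genes were above the median of all genes in both replicates. Pnpla2 ranked below Aqp7 in replicate 1 and directly after Lipe in replicate 2, while the other 4 kept their order relative to each other.

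**Figure D4:**
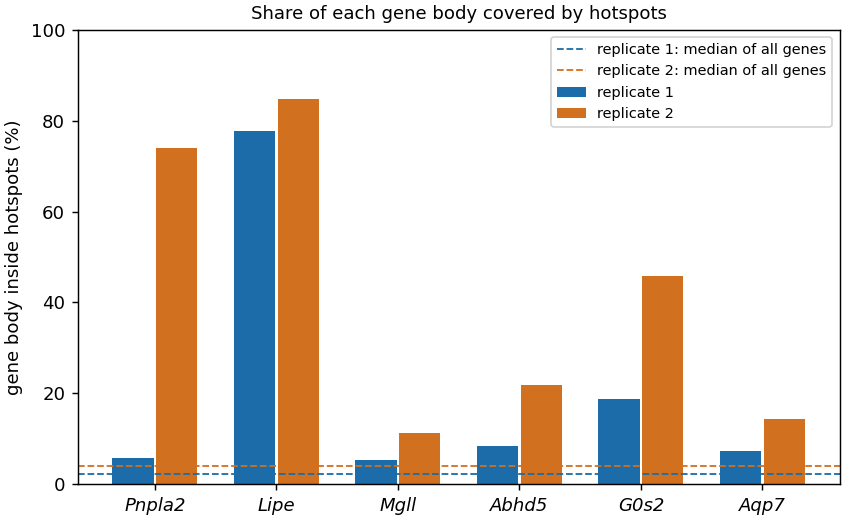
Share of each gene body (percent of its length) inside hotspots of replicate 1 and replicate 2, with dashed lines for the medians of all protein-coding genes (2.16% and 3.89%). The bars of Lipe are high in both replicates, and that of Pnpla2 is high in replicate 2 only.

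The letters of transcription factor motifs were counted on both strands of the central 150 bp of shared regions. A match is a description of the letters and shows no binding. PPAR-RXR letters (AGGTCA repeated with any base between, at most 2 mismatches) were in 4 of the 90 distal regions, or 4.44%, and in 4.18% of all 95618 distal shared regions. With at most 1 mismatch, only the Mgll region printed above remained, at 0.659% of all distal regions genome-wide. That region, with values of 55 and 99, lies at −6861 bp from the Mgll start. The other 3 were in the Mgll intron (GGGTCAAGGGTCA at chr6:88733424-88733436), in a Lipe intron (AGCTCTGAGGTCA at chr7:25382523-25382535, where the letters overlap a CRE match) and upstream of Abhd5 (AGGTGAGAGGTCC at chr9:122309839-122309851). The 28 promoter regions of the windows include promoters of neighbouring genes. In these 28 the letters occurred at Lipe (AGGGCAGAGGGCA at chr7:25391175-25391187) and at Aqp7 (AGGGGAGAGGTCA at chr4:41048051-41048063), each with 2 mismatches, and in 1.97% of all promoter regions.

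C/EBP letters (TTGCNNAA) were in 13 of the 90 distal regions, or 14.4%, and in 13.2% of all distal shared regions. They stood in both of the strong Abhd5 downstream regions and in a pair of the G0s2 regions, including the one printed. None of the 28 promoter regions, neighbours' promoters included, held them in the central 150 bp, and 6.03% of all promoter regions did. Over the whole merged region, 1 of the 28 held them. CRE letters (TGACGTCA, at most 1 mismatch), which CREB binds downstream of cAMP, were in 7 distal regions, or 7.78%, and in 4.87% of all. AP-1 (TGANTCA) was in 9, or 10%, and in 10.1% of all, and CTCF (CCACNAG followed directly by NNGGC) was in 5, or 5.56%, and in 4.88% of all. NFI (TTGGC and GCCAA with 5 bases between, at most 1 mismatch) and STAT (TTCNNNGAA) were in 3 distal regions each, and in 2.63% and 5.91% of all. FOXO (GTAAACA) was in 2 distal regions and in 2.99% of all. Among promoter regions it was in 2 of 28, and in 1.66% of all. In the Lipe upstream flank printed above, it appears as TGTTTAC within the capitals. Letters of the glucocorticoid receptor (GNACA and TGTNC with 3 bases between) and EBF (TCCC and GGGA with 2 bases between) were in none of the 90, and in 0.489% and 1.09% of all.

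The wider pathway was read from a list of 44 genes that includes the 6. A promoter peak in both replicates was found at 30 of the 44, or 68.2%, and at 25 of the 38 without the 6 genes, or 65.8%, beside the 55.3% of all coding genes given above. A further 3 genes, Ces1d, Ces1f and Pde3b, had one in replicate 2 alone. All 6 inhibitors and droplet coat genes (G0s2, Hilpda, Plin1, Plin2, Cidec and Faf2) were open in both, as were all 4 kinase A subunits. Lipases and co-lipases were open at 6 of 9, lacking Mgll, Ces1d and Ces1f. Glycerol and fatty acid handling genes were open at 3 of 5, lacking the aquaporins Aqp3 and Aqp9. The receptors, G protein and cyclases that raise cAMP stood lowest, at 2 of 6, namely Gnas and Adcy6. The catecholamine receptors Adrb1 and Adrb3 and the cyclases Adcy3 and Adcy5 had no promoter peak in either replicate. Antilipolytic receptors and enzymes were open at 7 of 11, lacking Adora1, Ptger3, Gnai1 and Pde3b, and the natriuretic peptide arm at 2 of 3, lacking Prkg1.

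Among list genes without a promoter peak in both replicates, the distal density of the window varied widely. Adcy5 had 32 distal shared regions, the most of the list, or 12.8 per 100 kb, and Adrb1 had 14, or 12.6 per 100 kb. Adrb3 had 12, or 9.61 per 100 kb. Prkg1 had 22 in a long window, or 1.69 per 100 kb (percentile 20.5). Pde3b and Ptger3 were also below the median of all gene windows, at percentiles 48.4 and 39.3. Gnai1 had no shared region of any kind in its window. Among the open genes, Fabp4, a fatty acid carrier, had 29, Plin1, the droplet coat protein that holds ABHD5 in the basal state, had 22, Insr had 20 and Prkar2b had 19. The median over the list was 9.30 distal shared regions per 100 kb, beside 5.10 over all coding genes.

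**Figure D5:**
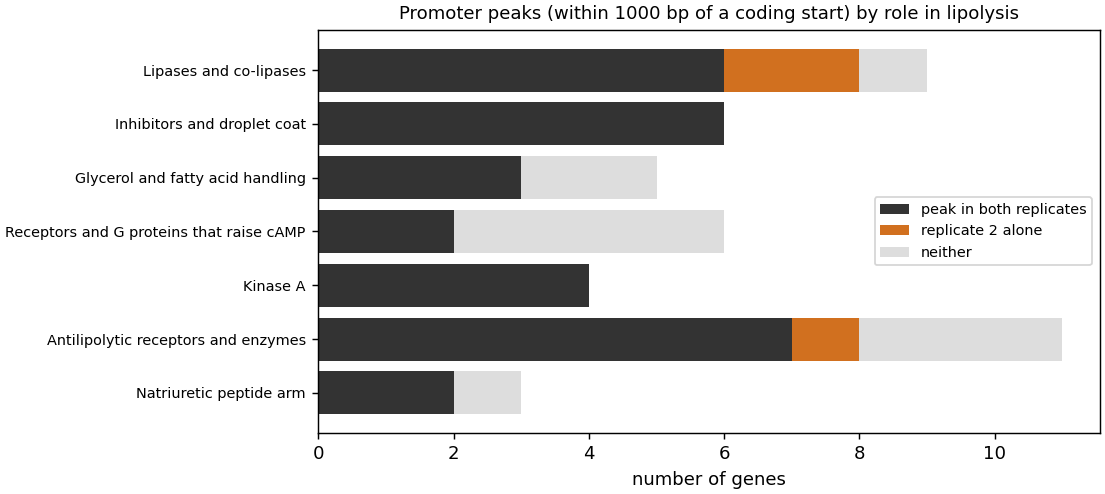
Number of genes per role in the lipolysis list with a promoter peak in both replicates (black), in replicate 2 alone (orange) or in neither (grey). The kinase A subunits and the inhibitors and droplet coat genes are black throughout, and the cAMP-raising group has 2 of 6 in black.

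The adipocyte label was set against marker genes by the same promoter rule, which 55.3% of all coding genes met in both replicates. Of 8 white adipocyte markers, 7 had a promoter peak in both replicates (Adipoq, Plin1, Cidec, Fabp4, Pparg, Cfd and Retn), and Lep had one in replicate 2 alone. The brown adipocyte markers Ucp1, Cidea and Zic1 had none. Of 4 preadipocyte markers, Pdgfra, Thy1 and Pdgfrb were open in both and Dlk1 in neither, and the share of undifferentiated cells was not tested. Markers of endothelium (0 of 3), muscle (0 of 2) and hepatocytes (0 of 2) had no promoter peak in either replicate. Distal shared regions per 100 kb were mixed at these and the brown markers. Pecam1 (percentile 94.2), Cidea (92.8), Myog (91.9) and Ucp1 (62.2) were above the median of all gene windows, and the others were below it. Of the blood markers, Ptprc had none, and Adgre1 and Cd68 had one in replicate 2 alone.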

How the data were processed

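DNase-seq libraries of 1 group (2 replicates) were analysed from region lists. Per the labels, the assembly was mm10. The authors deposited peaks and hotspots for each library separately. Their caller, aligner, filters and depth were not given in the sources used here. Each peak of 150 bp carries the authors' signal value, from 1 to 150. Each hotspot carries the authors' −log10 q value, with a ceiling of 100 that 46.7% and 48.5% of hotspots reached. Repeated peak lines (20 and 33) were dropped, and regions off the 21 chromosomes were left out.

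Peaks of both libraries were merged where they overlapped by at least 1 bp, and a region was distal when its centre lay over 1000 bp from every protein-coding start. A gene's promoter was open when a peak overlapped within 1000 bp of a start. Percentiles of window counts are among all 21829 protein-coding genes. Named distal regions were the 3 of highest mean percentile per gene and those with PPAR-RXR letters, and all starts, neighbours and list genes without a shared promoter peak were named by rule. Scripts (Python 3.11.15, pandas 2.3.3, numpy 2.4.6, pysam 0.24.0) were tested on simulated data. Genes, lists, motifs and alternatives were chosen with earlier results of these data known. Of the pathway list, 1 gene is not reported here. No test was made, and with 2 replicates no error is given beyond both values.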

Additional observations from a re-analysis of the deposited data

How the results depend on the processing

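No paired analysis was possible because there was only 1 group. The number of genes with an open promoter was 5 in all settings except a promoter window of 2500 bp and start sites of every transcript, where Mgll was added to make 6. The share of all coding genes also rose there, from 55.3% in the main setting to 61.0% and 57.4%. The pathway count of 30 ranged from 27 with a window of 500 bp to 39 with 2500 bp, where 52.7% and 61.0% of all coding genes were open. The 118 shared regions became 210 with flanks of 100 kb and 78 with the stronger 50% of peaks. Counting the peaks of a single library gave 146 to 288, the higher without replicate 1. The 330 hotspots became 540 with flanks of 100 kb and 136 at the ceiling only, and 112 to 218 with a single library. PPAR-RXR matches fell from 4 to 1 with at most 1 mismatch, and C/EBP matches from 13 to 7 with the letters TTGCNCAA. These settings change the windows, the regions counted or the letters, and a single library counts peaks that need not be shared. Pnpla2 crossed the median of all genes in distal density: it was at percentile 46.4 in the main setting, at 73.1 with flanks of 100 kb, at 97.8 without replicate 1 and at 58.2 without replicate 2. In the other settings it stayed below the median. Across 7 settings the percentile of distal density ranged from 29.1 to 97.8 at Pnpla2, 76.7 to 97.6 at Abhd5, 82.1 to 98.9 at G0s2, 69.5 to 87.4 at Aqp7, 92.4 to 99.8 at Lipe and 93.5 to 97.9 at Mgll. Unknown depth limits any reading of regions found in a single library.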
